A study of Homo sapiens with 15 samples.

Results

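The comparison described here set A549 cells made hypoxic without any compound against A549 cells kept in normoxia without any compound. A549 is an established human lung adenocarcinoma line with an epithelial character. The members are the arrays titled as hypoxic vehicle and as normoxic vehicle, 3 of each, which are 6 of the 15 arrays of the series. All probe sets with 1 gene symbol were taken, 19310 of 28869, and they stood for 18377 genes, of which 16005 were bright enough to be tested. The cells of both groups carried no labelled genetic change. Both groups received medium with 0.1% DMSO, the solvent in which the compounds of the series were given. After 6 h with vehicle the hypoxic cultures were closed in a gas-generating pouch that removes oxygen and were kept there for another 42 h. The oxygen level inside the pouch and the time the normoxic cultures stood with vehicle are not stated in the material used here. The other 9 arrays are hypoxic cultures that also received 10 µM of BB2-125, BB2-282 or BB2-162. The compounds were meant to act on transcription by hypoxia-inducible factor, and their arrays entered the choice of probe sets, the dim filter and the estimate of the spread between arrays. Cultures of a group are labelled as biological replicates, with nothing more on their independence, so p-values here measure the spread between these arrays.

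Cells sense oxygen through prolyl hydroxylases, which mark the alpha subunits of hypoxia-inducible factor (HIF) for destruction while oxygen is plentiful. In hypoxia the alpha subunit persists, pairs with ARNT and binds short promoter and enhancer sequences, often with the core ACGTG. Only this form of the HIF core was searched here. Its classical targets turn cells to glycolysis, to new vessel growth and to changes in the matrix. Other routes also answer low oxygen, among them stress signalling that slows translation, oxygen-dependent histone and DNA demethylases, iron handling, and the arrest of DNA synthesis. Those other functions are the subject here.

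The values are log2 intensities, and a change is the hypoxic mean minus the normoxic mean, so that 1 unit is a 2-fold difference. Errors after ± are standard errors of limma's change, from a fit that shares its spread over 5 groups of 3 arrays. A gene was called when its limma p-value, adjusted by Benjamini-Hochberg over 16005 genes, was under 0.05. The median SD within a group was 0.115 in normoxia and 0.129 in hypoxia, and the median standard error of a change was 0.119. Array intensities had medians of 74.91 to 80.24 over the 6 arrays, and their number limits the precision. Correlations were 0.987 to 0.994 within the groups and 0.861 to 0.894 between them, and the first principal component of the 6 arrays held 91.2% of their variance.

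The oxygen labels were checked on 4 known HIF targets. VEGFA, which encodes an angiogenic growth factor, measured 7.80, 7.85 and 7.63 on the normoxic arrays and 11.28, 11.54 and 11.43 on the hypoxic arrays. EGLN3, an oxygen-sensing prolyl hydroxylase, measured 8.16, 8.23 and 8.23 on the normoxic arrays and 10.43, 10.71 and 10.24 on the hypoxic arrays. Every hypoxic array lay above every normoxic array in both, as it did in SLC2A1 and NDRG1, which rose by 2.13 ± 0.11 and 4.15 ± 0.09.

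The epithelial character was checked on 7 markers, all of which were tested. The keratin gene KRT8 measured 13.25, 13.28 and 13.29 on the normoxic arrays and 12.84, 12.73 and 12.63 on the hypoxic arrays, and KRT18 had means of 12.97 and 12.24. Both were thus bright on all arrays and slightly lower in hypoxia (-0.54 ± 0.10 and -0.73 ± 0.13). KRT19 rose by 1.42 ± 0.12, whereas the adhesion genes CDH1 (-1.53 ± 0.14) and EPCAM (-1.32 ± 0.16) fell. KRT7 rose by 0.24 ± 0.10, a call that ended under 10 of 16 alternative settings, among them leaving out normoxic replicate 1 or 3 or any 1 hypoxic replicate, and CLDN4 did not pass. The aldehyde and carbonyl enzymes for which A549 is known were also bright, with ALDH1A1 at 13.11, 13.27 and 13.22 on the normoxic arrays and 11.60, 11.58 and 11.54 on the hypoxic arrays. Of the markers of other cell types, 5 of 7 for fibroblasts, 5 of 7 for leukocytes and 7 of 7 for endothelial cells passed the dim filter. Their median levels ran from 6.14 to 6.45, from 5.28 to 5.60 and from 5.07 to 5.21 over the 6 arrays, close, in the last case, to the dim-filter level, which averaged 4.60 in normoxia and 4.70 in hypoxia. None of the fibroblast or leukocyte markers was called. CDH5 (0.26 ± 0.10) and ESAM (0.32 ± 0.10) of the endothelial list were called slightly higher. Both calls ended without normoxic replicate 2 (adjusted p = 0.172 and 0.0603) and without hypoxic replicate 1 (0.0864 and 0.0510), and that of CDH5 also without hypoxic replicate 3 (0.0789).

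Hypoxia changed more than 1 in 2 of the genes tested. Of 16005 genes, 9207 were called, which is 57.5%. Rises numbered 4508 (28.2%) and falls 4699 (29.4%), but large falls outnumbered large rises. At least 2-fold, 835 genes were higher (5.22%) and 1897 lower (11.9%), and at least 4-fold the counts were 155 and 421. At least 8-fold they were 35 and 79. The groups of 3 arrays did not overlap in 10346 genes (64.6%), of which 8883 were called. The median change of all genes was 0.09, with the 5th percentile at -1.60 and the 95th at 1.02. Any share of called genes in a list below is to be read against these background shares. RMA sets all arrays to a common distribution, so a change is relative to the other transcripts of the same array, and fewer cells and less RNA per cell cannot be told apart.

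**Figure D1:**
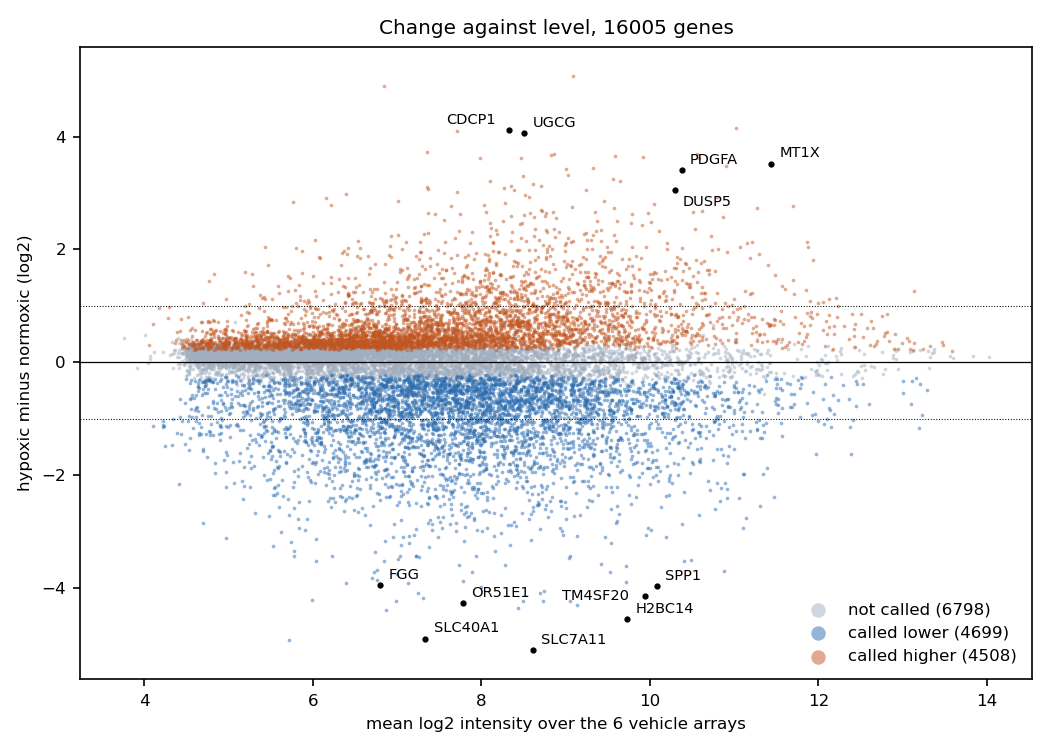
Change between hypoxia and normoxia (log2, vertical axis) against the mean log2 intensity of the 6 vehicle arrays (horizontal axis) for 16005 genes, coloured by limma call, with dotted lines at 2-fold. Falls past the lower line (1897) outnumber rises past the upper line (835).

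Brighter genes were called more often and moved further. Of the 4002 dimmest genes 19.6% were higher and 14.2% lower, and of the 4001 brightest 32.6% and 40.1%. Falls of at least 2-fold made up 5.55% of the dimmest and 16.2% of the brightest genes, and rises 0.925% and 11.1%. The median standard error was alike in both, at 0.120.

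Among the largest rises outside the list of classical HIF targets were genes of growth factor signalling, stress and inflammation. CDCP1, a surface protein that recruits SRC-family kinases, measured 6.28, 6.11 and 6.41 on the normoxic arrays and 10.30, 10.39 and 10.47 on the hypoxic arrays. TNFAIP3, the ubiquitin-editing brake on NF-kB signalling, measured 5.58, 5.43 and 5.96 on the normoxic arrays and 9.71, 9.76 and 9.79 on the hypoxic arrays. UGCG, which makes glucosylceramide, measured 6.16, 6.77 and 6.51 on the normoxic arrays and 10.53, 10.48 and 10.60 on the hypoxic arrays. In each the groups were separated by a wide gap, and the changes were 4.12 ± 0.09, 4.10 ± 0.17 and 4.06 ± 0.14 (adjusted p = 8.24e-13 or lower). PITPNC1, a phosphatidylinositol transfer protein, rose by 3.68 ± 0.11, and the transcription factor gene ETS1 rose by 3.62 ± 0.10 from 6.11, 6.31 and 6.11 to 9.70, 9.79 and 9.91. AKAP12, a scaffold for protein kinase A, rose by 3.45 ± 0.12, and PDGFA, a platelet-derived growth factor chain, by 3.40 ± 0.16. Of the endocytic receptor gene LRP1 the levels went from 7.66, 8.22 and 8.26 to 11.09, 11.37 and 11.32, with normoxic replicate 1 the lowest.

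Stress genes formed another part of the top rises. PPP1R15A, which directs the phosphatase that restarts translation after stress, measured 7.47, 7.45 and 7.18 on the normoxic arrays and 10.81, 10.25 and 11.02 on the hypoxic arrays. DDIT3, the CHOP transcription factor of the unfolded protein response, measured 6.92, 7.11 and 6.49 on the normoxic arrays and 10.31, 10.19 and 9.95 on the hypoxic arrays. The hypoxic arrays of PPP1R15A were spread more widely than the normoxic ones, and neither gene's groups overlapped. The changes were 3.33 ± 0.14 and 3.31 ± 0.13 (adjusted p = 9.41e-13 or lower). MT1X, a metal-binding metallothionein, rose by 3.52 ± 0.14 to levels of 13.06 to 13.29. Other metallothionein genes rose as well, MT1G by 1.57 ± 0.11 and MT2A by 1.26 ± 0.11; the copies of this family are nearly identical, so signal could be shared among their probe sets. JUN, DUSP5, IRAK2 of the interleukin-1 pathway (3.13 ± 0.12), the tissue factor gene F3, the BMP antagonist gene GREM1 (3.09 ± 0.13) and the polycomb-associated gene PHF1 (3.12 ± 0.11) completed the rises of about 3 units, together with YPEL2 (3.16 ± 0.10) and the noncoding EPB41L4A-AS1 (3.25 ± 0.12).

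**Figure D2:**
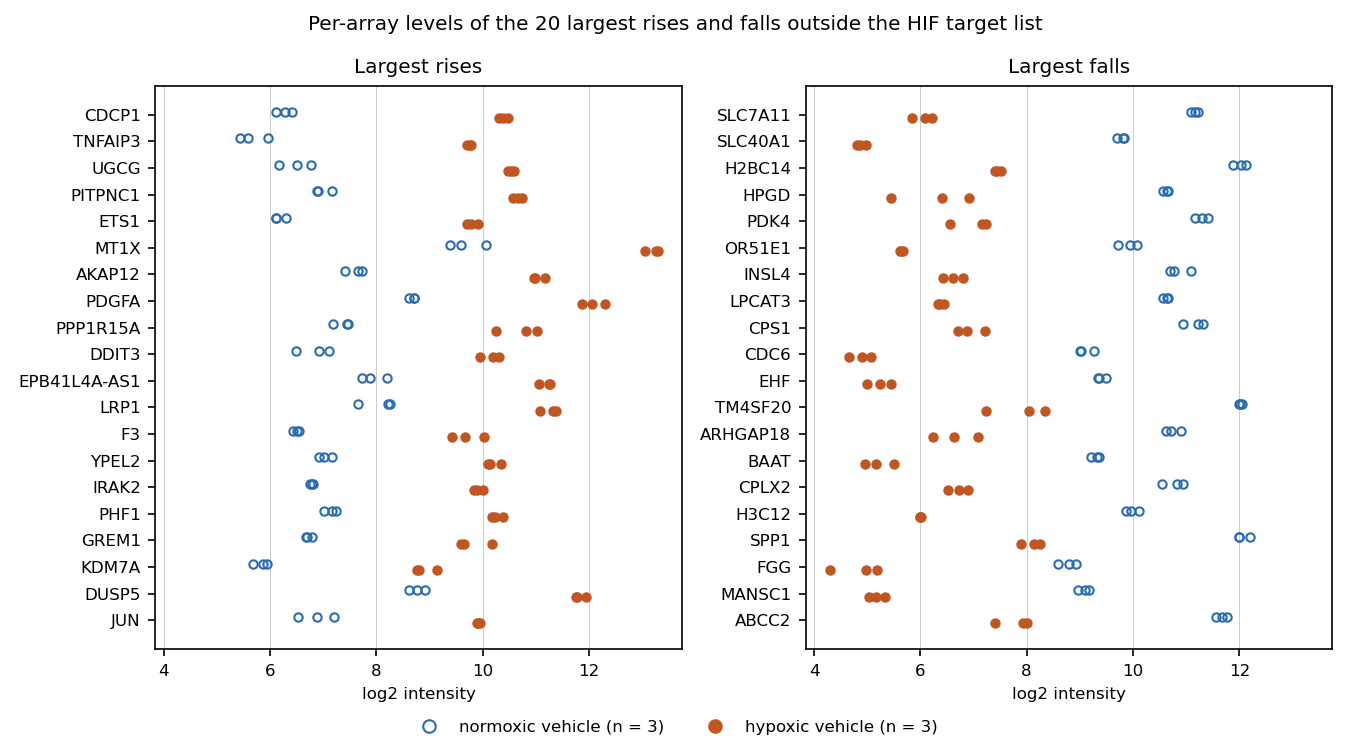
Log2 intensity on each of the 6 arrays (horizontal axis) for the 20 largest rises (left) and 20 largest falls (right) outside the HIF target list, open circles for normoxic and filled circles for hypoxic vehicle, 3 arrays each. The genes were taken only from those whose groups do not overlap, and HPGD, TM4SF20 and FGG have 1 hypoxic array below the other 2.

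KDM7A, a histone demethylase whose enzyme needs oxygen, measured 5.69, 5.94 and 5.87 on the normoxic arrays and 8.80, 9.14 and 8.76 on the hypoxic arrays, a rise of 3.07 ± 0.17. The promoters of AKAP12, TNFAIP3 and KDM7A are shown as examples of genes outside the classical list with the HIF core in the 250 bases before their start. Such a match is common. Over 300-base windows ACGTG was in 25.1% of all promoters and in 27.9% of those of genes at least 2-fold higher outside the classical list. The sequences are those of RefSeq on GRCh38.p14, 5′ to 3′ on the gene's strand, and capitals mark ACGTG on either strand; where both strands match, the overlapping matches give the longer run in capitals.
AKAP12 (chr6:151239717-151239966, plus strand): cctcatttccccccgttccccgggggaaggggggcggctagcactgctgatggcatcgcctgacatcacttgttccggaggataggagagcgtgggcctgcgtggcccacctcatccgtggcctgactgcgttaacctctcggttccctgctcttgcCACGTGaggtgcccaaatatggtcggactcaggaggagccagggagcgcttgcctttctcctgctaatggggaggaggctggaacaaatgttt
TNFAIP3 (chr6:137867009-137867258, plus strand): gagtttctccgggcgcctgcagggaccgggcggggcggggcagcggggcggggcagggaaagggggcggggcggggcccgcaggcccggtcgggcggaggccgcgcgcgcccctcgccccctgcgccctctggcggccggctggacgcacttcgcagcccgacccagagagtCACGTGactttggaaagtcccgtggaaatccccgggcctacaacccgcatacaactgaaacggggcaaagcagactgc
KDM7A (chr7:140176984-140177233, minus strand): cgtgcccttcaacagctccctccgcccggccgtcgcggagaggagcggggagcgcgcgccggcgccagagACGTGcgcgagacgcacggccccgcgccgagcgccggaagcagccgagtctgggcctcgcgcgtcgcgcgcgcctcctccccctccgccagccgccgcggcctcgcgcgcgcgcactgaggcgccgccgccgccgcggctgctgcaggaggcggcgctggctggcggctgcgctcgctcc
A match describes the letters only. AKAP12 and TNFAIP3 hold the palindromic form, which reads as the core on both strands, and KDM7A holds 1 match. TNFAIP3 also holds matches to the NF-kB-type sequence counted below, which are not marked.

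The largest fall was that of SLC7A11, the cystine carrier that feeds glutathione synthesis. It measured 11.09, 11.23 and 11.18 on the normoxic arrays and 6.09, 6.23 and 5.84 on the hypoxic arrays, a fall of 34.5-fold (-5.11 ± 0.14, adjusted p = 3.48e-15). SLC40A1, ferroportin, the only known cellular iron exporter, measured 9.83, 9.81 and 9.71 on the normoxic arrays and 4.98, 4.80 and 4.87 on the hypoxic arrays. It thus went from a well-expressed level to close to the dim-filter level in hypoxia, a change of -4.90 ± 0.11. H2BC14, a histone H2B gene, fell by 4.56 ± 0.14 and the histone H3 gene H3C12 changed by -3.98 ± 0.15, but both belong to families of near-identical copies whose signal the probe sets may share. HPGD, which degrades prostaglandins, measured 10.66, 10.64 and 10.56 on the normoxic arrays and 6.40, 6.92 and 5.44 on the hypoxic arrays. Its hypoxic arrays spread over more than 1 unit and all lay far below the normoxic ones, with a change of -4.36 ± 0.23. PDK4, a kinase that holds back pyruvate oxidation, fell from 11.17, 11.40 and 11.30 to 7.23, 7.17 and 6.56, with hypoxic replicate 3 the lowest.

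Several of the other large falls were secreted or hepatocyte-type products that A549 makes at high level in normoxia. FGG, the fibrinogen gamma chain, measured 8.80, 8.93 and 8.59 on the normoxic arrays and 4.97, 5.19 and 4.29 on the hypoxic arrays. CPS1, the urea-cycle enzyme that A549 expresses, measured 10.95, 11.32 and 11.23 on the normoxic arrays and 6.88, 7.21 and 6.70 on the hypoxic arrays. SPP1, osteopontin, measured 12.21, 12.001 and 12.004 on the normoxic arrays and 8.15, 8.26 and 7.89 on the hypoxic arrays. All 3 fell by about 4 units (-3.96 ± 0.21, -4.23 ± 0.15 and -3.97 ± 0.11), and FGG came close to the dim-filter level or below it on every hypoxic array. BAAT, a bile acid conjugating enzyme, fell by 4.09 ± 0.18, and falls were also called for the organic anion pump gene ABCC2 (-3.89 ± 0.17), INSL4 of the insulin family (-4.24 ± 0.19) and the lysophospholipid acyltransferase gene LPCAT3 (-4.24 ± 0.13). The epithelial transcription factor gene EHF fell by 4.17 ± 0.14, and TM4SF20, ARHGAP18, MANSC1 and CPLX2 fell (-4.14 ± 0.22, -4.09 ± 0.17, -3.91 ± 0.10 and -4.06 ± 0.12). CDC6, a loader of the replicative helicase, was the only gene of DNA replication licensing among these 20, at -4.23 ± 0.15. OR51E1, an olfactory-type receptor expressed outside the nose, fell from 9.95, 10.07 and 9.72 to 5.63, 5.68 and 5.63.

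Some genes passed from one side of the dim filter to the other. There were 24 genes at or below it on all 3 normoxic arrays, above it on all 3 hypoxic ones and called higher, and 159 genes with the reverse pattern. For these the dim side has no measured level, and the fold is a bound counted from the filter level. CCL20, a chemokine for dendritic cells and lymphocytes, went from 4.47, 4.56 and 4.16 to 9.38, 9.17 and 9.34, at least 4.69 units higher. SPINK1, a trypsin inhibitor, went from 4.55, 4.22 and 4.27 to 7.22, 6.67 and 7.66, at least 2.58 units higher. The remaining rises of this kind were small, the next being XCL1 at 1.004 units or more. On the falling side stood ESCO2, which acetylates cohesin in S phase, ST8SIA4, a polysialyltransferase, and SAMHD1, a nucleotide triphosphohydrolase. ESCO2 went from 8.31, 7.95 and 8.28 to 2.99, 3.45 and 3.33 and SAMHD1 from 7.21, 7.36 and 7.44 to 4.25, 4.004 and 4.18, with bounds of -3.48 and -2.63. The bound of ST8SIA4 was -3.39, those of the potassium channel gene KCNJ16 and of FAM111B were -3.09 and -2.90, and those of SLITRK6, the chromatin remodeller HELLS and the resolvase GEN1 were -2.78, -2.75 and -2.60.

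The lists that follow were counted gene by gene, without a test of the list. Over all genes tested, 28.2% were higher and 29.4% lower, and 5.22% and 11.9% were so at least 2-fold. A count near these shares describes the list but is no feature of it. The list of classical HIF targets had 61 of 83 tested members higher, 7 lower and a median change of 1.30, beside 0.09 for all genes. Its values set the scale for the other functions. Members against the trend were NT5E, an ectonucleotidase (-1.87 ± 0.17), the haem oxygenase gene HMOX1 (-1.26 ± 0.11) and the transferrin receptor gene TFRC (-0.85 ± 0.15).

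**Figure D3:**
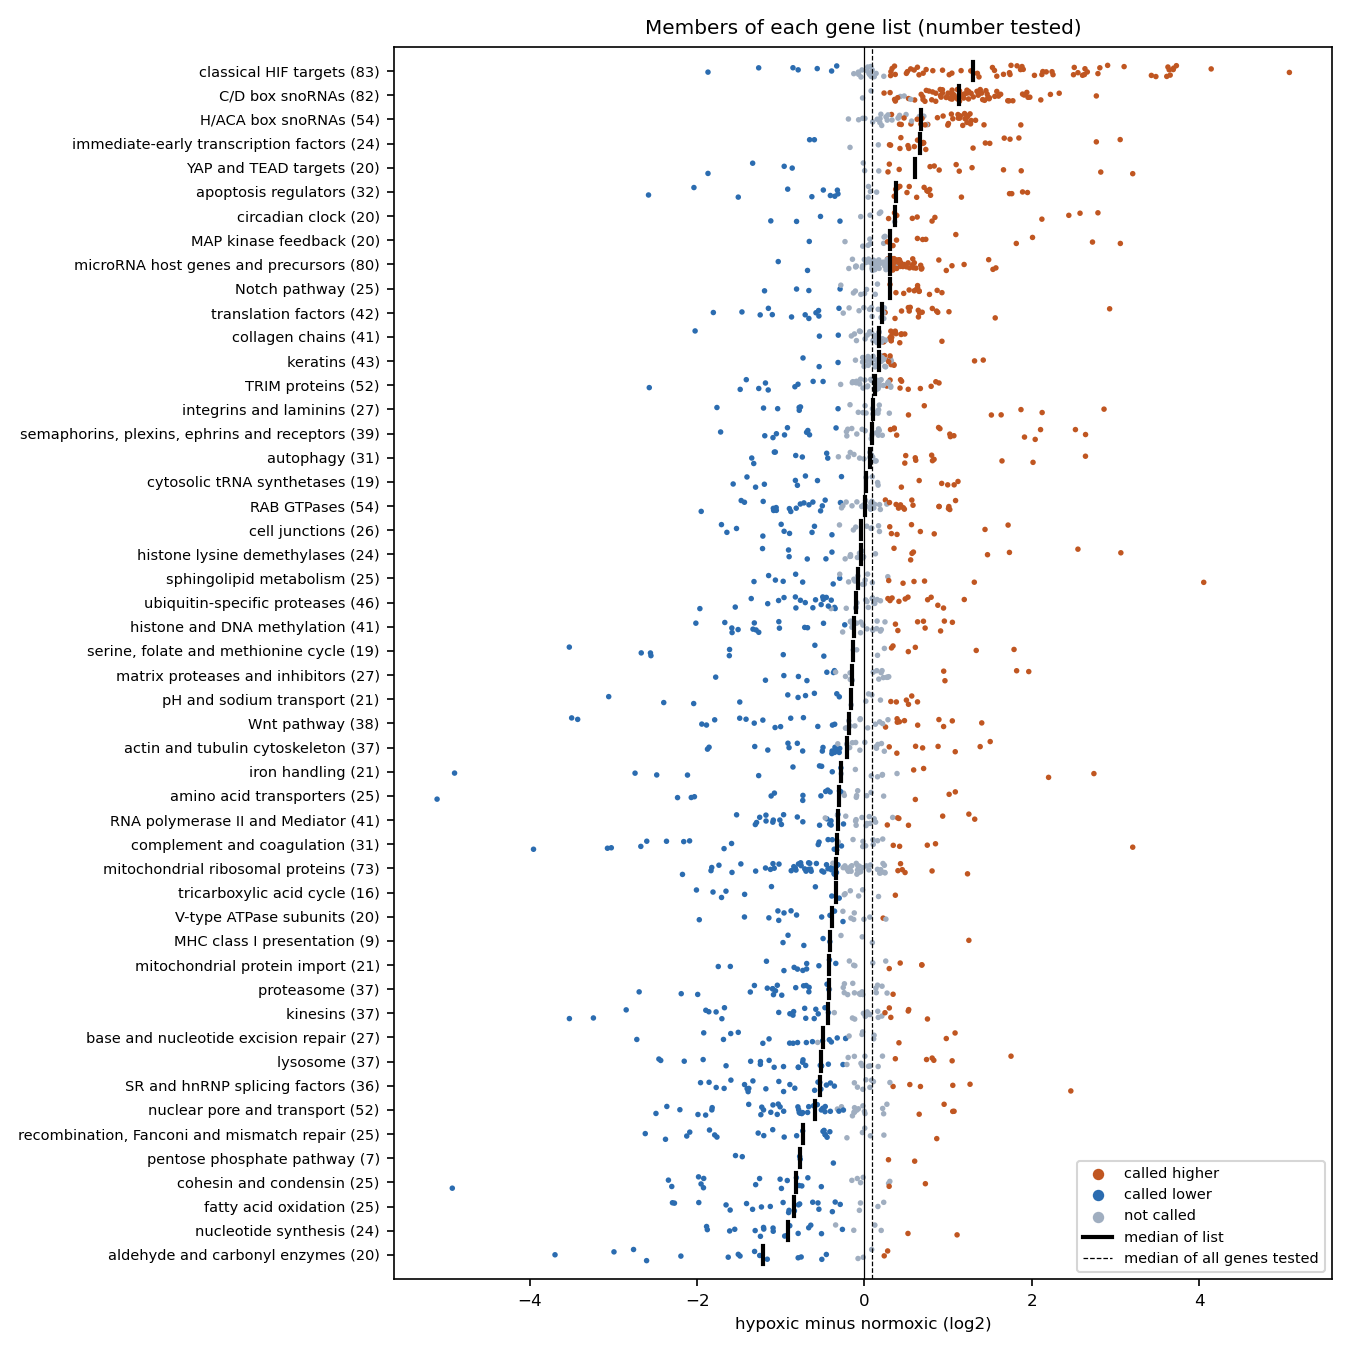
Change (log2) of every tested member of the gene lists other than the marker lists of cell types and of A549, 1 row per list with the number tested in parentheses, coloured by limma call, with the list median as a black bar and the median of all genes as a dashed line at 0.09. Medians of the lists shown run from -1.21 for aldehyde and carbonyl enzymes to 1.30 for classical HIF targets.

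Among metabolic genes, those of fatty acid oxidation and the tricarboxylic acid cycle had more falls than rises. Of 25 fatty acid oxidation genes, 21 fell, 9 of them at least 2-fold, and none rose, with a median change of -0.84. ACADM, the medium-chain acyl-CoA dehydrogenase, measured 9.13, 9.19 and 9.31 on the normoxic arrays and 6.99, 7.10 and 6.67 on the hypoxic arrays, and every hypoxic array lay at least 2 units below every normoxic one (-2.29 ± 0.17). ACAD9 and ECH1 fell (-2.27 ± 0.14 and -1.98 ± 0.19). Of 16 tricarboxylic acid cycle genes, 9 fell, 1 rose (IDH2, 0.37 ± 0.10) and 6 did not pass. IDH3A, the catalytic part of the NAD-linked isocitrate dehydrogenase, measured 11.08, 11.05 and 11.12 on the normoxic arrays and 9.09, 9.45 and 8.68 on the hypoxic arrays, a change of -2.01 ± 0.17. OGDH, a subunit of the oxoglutarate dehydrogenase, fell by 1.81 ± 0.11 and SDHC of complex II changed by -1.71 ± 0.13 (adjusted p = 6.88e-09 or lower). In the pentose phosphate pathway 5 of 7 fell, among them TALDO1 (-1.54 ± 0.11) and RPE (-1.46 ± 0.17), and PGLS (0.60 ± 0.11) and TKT (0.29 ± 0.09) were called higher; the TKT call ended after quantile normalization (adjusted p = 0.248) and without normoxic replicate 1 (0.0516).

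Nucleotide synthesis genes fell in 18 of 24 cases, with a median of -0.91. Thymidine kinase TK1 measured 9.77, 9.55 and 9.71 on the normoxic arrays and 8.06, 7.51 and 7.79 on the hypoxic arrays, and PRPS1, which makes the ribose phosphate donor, measured 9.80, 9.43 and 9.38 on the normoxic arrays and 7.68, 7.60 and 7.69 on the hypoxic arrays. Neither gene's groups overlapped. Both inosine monophosphate dehydrogenase genes went the other way, IMPDH2 from 9.49, 9.45 and 9.46 to 10.69, 10.57 and 10.45 and IMPDH1 by 0.52 ± 0.09.

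The serine, folate and methionine list was divided, with 6 of 19 higher and 9 lower. The mitochondrial folate enzymes MTHFD1L and MTHFD2 rose by 1.79 ± 0.11 and 1.34 ± 0.11, and PHGDH, the first enzyme of serine synthesis, rose by 0.61 ± 0.12. The later serine enzymes fell, PSAT1 from 8.88, 8.86 and 8.63 to 6.26, 6.47 and 5.96 and PSPH from 9.35, 9.40 and 8.87 to 6.68, 6.62 and 6.31. MAT2A, which makes S-adenosylmethionine, went from 12.11, 12.19 and 12.20 to 8.57, 8.80 and 8.55. All its hypoxic arrays were more than 3 units below the normoxic arrays (-3.53 ± 0.10, adjusted p = 3.04e-15).

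Amino acid transporters fell in 14 of 25 cases and rose in 3. Beside SLC7A11, the carriers SLC38A6 and SLC38A9 fell (-2.23 ± 0.18 and -2.07 ± 0.20), whereas SLC1A1, a glutamate carrier, rose by 1.09 ± 0.17 and the taurine carrier SLC6A6 by 1.01 ± 0.15. Iron handling showed 10 falls and 4 rises among 21 genes. The mitochondrial iron importer gene SLC25A37 measured 8.09, 8.22 and 8.29 on the normoxic arrays and 10.81, 11.07 and 10.96 on the hypoxic arrays, and the ferrireductase gene STEAP3 measured 7.90, 7.96 and 7.93 on the normoxic arrays and 9.96, 10.22 and 10.20 on the hypoxic arrays. Both rose without overlap (2.74 ± 0.12 and 2.20 ± 0.10), whereas the related STEAP1 and STEAP2 fell (-2.74 ± 0.15 and -2.48 ± 0.16).

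Aldehyde and carbonyl enzymes had a median of -1.21, with 15 of 20 lower and 11 of these at least 2-fold. AKR1B10, an aldo-keto reductase, measured 12.61, 12.93 and 12.65 on the normoxic arrays and 9.38, 9.10 and 8.61 on the hypoxic arrays. It was among the brightest genes in normoxia and fell by 3.70 ± 0.16. ALDH3A2, which oxidises fatty aldehydes, fell by 2.99 ± 0.13, and AKR1C3 fell as well (-2.76 ± 0.16); the AKR1C genes are close copies, and AKR1C1 did not pass (0.09 ± 0.13). The 2 rises on this list, of ALDH1A2 and ALDH1A3, were under 0.3 units and each lost its call under 10 of 16 alternatives, among them leaving out normoxic replicate 2 (adjusted p = 0.212 and 0.0932) or hypoxic replicate 3 (0.126 and 0.293). Sphingolipid genes were mixed, with 6 of 25 higher and 8 lower around a median near 0 (-0.08). UGCG stood far above the next rise, that of the sphingosine kinase gene SPHK1 (1.31 ± 0.12), and SGPL1, which degrades sphingosine phosphate, fell by 1.06 ± 0.14.

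In protein turnover, the proteasome, lysosome and V-type ATPase lists had more falls than rises, and the autophagy list did not. In the proteasome 19 of 37 fell, 11 at least 2-fold, and 1 rose. The activator gene PSME3 measured 10.95, 11.01 and 10.97 on the normoxic arrays and 8.32, 8.42 and 8.11 on the hypoxic arrays, and PSMD1, a base subunit of the regulatory particle, measured 9.78, 9.95 and 9.89 on the normoxic arrays and 7.82, 7.88 and 7.35 on the hypoxic arrays. Both groups were clear of each other in each gene (-2.69 ± 0.12 and -2.19 ± 0.17). Of 37 lysosomal genes, 21 fell and 6 rose. The hydrolase genes GLA (-2.46 ± 0.14), PPT1 (-2.44 ± 0.20) and ARSB (-2.15 ± 0.10) led the falls, and NPC1, which exports cholesterol from the lysosome, rose by 1.75 ± 0.15. V-type ATPase subunits, which acidify the lysosome, fell in 12 of 20 cases, among them ATP6V0D1 (-1.97 ± 0.14). The autophagy list had 10 rises and 8 falls among 31 (32.3% and 25.8%), shares near those of all genes. Its largest rises were OPTN from 7.17, 7.41 and 7.18 to 9.98, 9.70 and 10.01, WIPI1 by 2.02 ± 0.10 and GABARAPL1 by 1.65 ± 0.14, and its falls included BECN1 (-1.35 ± 0.13) and ATG2B (-1.32 ± 0.15).

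The machinery of translation moved both ways. Of 42 initiation and elongation factors, 16 rose and 12 fell (38.1% and 28.6%), beside 28.2% and 29.4% of all genes. EIF4A2, a helicase paralogue of the main cap-dependent helicase, measured 9.42, 9.34 and 9.22 on the normoxic arrays and 12.22, 12.44 and 12.12 on the hypoxic arrays. It gained 2.93 ± 0.10 without overlap, the largest rise of its list (adjusted p = 2.57e-14). The translation brakes EIF4EBP1 and EIF4EBP2 went opposite ways, EIF4EBP1 from 9.36, 9.22 and 9.20 to 10.89, 10.78 and 10.81 and EIF4EBP2 from 9.92, 10.16 and 10.14 to 8.10, 8.47 and 8.24. Cytosolic tRNA synthetases had 6 rises and 9 falls among 19. GARS1 and CARS1 rose by 1.12 ± 0.12 and 1.07 ± 0.10, and WARS1 and FARSB fell (-1.57 ± 0.11 and -1.40 ± 0.18).

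Most of the called mitochondrial biogenesis genes were lower. In the mitochondrial ribosome 39 of 73 proteins fell, 12 at least 2-fold, and 6 rose. MRPL50 fell from 11.08, 10.94 and 10.83 to 8.74, 8.98 and 8.61, whereas MRPL10 rose by 1.23 ± 0.12. Of 21 import genes, 12 fell and 4 rose, with the chaperonin partner gene HSPE1 at -1.60 ± 0.13 and the receptor gene TOMM20 at 0.69 ± 0.13.

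Genes of RNA processing and nuclear transport were mainly lower. Of 52 nuclear pore and transport genes, 34 were lower, 16 at least 2-fold, and 4 higher, with a median of -0.59. NUP188, a scaffold nucleoporin, measured 8.35, 8.63 and 8.43 on the normoxic arrays and 5.997, 6.02 and 5.92 on the hypoxic arrays, and NUP88 measured 10.63, 10.52 and 10.56 on the normoxic arrays and 8.23, 8.47 and 7.92 on the hypoxic arrays. The groups were more than 2 units apart in each gene (-2.49 ± 0.11 and -2.36 ± 0.14). XPOT, the tRNA exporter, was 1 of the 4 rises (1.06 ± 0.13). Of 36 SR and hnRNP splicing factors, 22 fell and 6 rose. HNRNPAB fell by 1.96 ± 0.10 and HNRNPM changed by -1.86 ± 0.11. CLK1, the kinase that phosphorylates SR proteins, measured 8.56, 8.50 and 8.56 on the normoxic arrays and 11.03, 11.12 and 10.88 on the hypoxic arrays, a rise of 2.47 ± 0.09 without overlap, and its relative CLK3 rose by 1.06 ± 0.10. HNRNPA1 was also called higher, but it has many processed copies in the genome and its normoxic replicate 1 stood about 1 unit below the other normoxic arrays. RNA polymerase II and Mediator had 20 genes lower and 7 higher of 41, with MED11 at -1.53 ± 0.13 and MED15 at 1.32 ± 0.10.

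Most histone lysine demethylases are dioxygenases, which use oxygen as a substrate. Of 24 genes of this list, 8 rose, 4 of them at least 2-fold, and 6 fell, with a median of -0.04. The shares that rose and that fell were near those of all genes. KDM3A, which removes methyl groups from H3K9, measured 7.46, 7.58 and 7.77 on the normoxic arrays and 10.12, 10.20 and 10.16 on the hypoxic arrays. JMJD6, a lysyl hydroxylase, measured 8.09, 8.26 and 8.09 on the normoxic arrays and 9.98, 9.62 and 10.04 on the hypoxic arrays. Every hypoxic array lay above the normoxic arrays in both (2.55 ± 0.13 and 1.73 ± 0.11), as in KDM7A, whereas KDM3B, the close relative of KDM3A, fell by 0.91 ± 0.13. Among 41 genes of histone and DNA methylation, 15 fell and 8 rose. The maintenance DNA methyltransferase gene DNMT1 went from 8.85, 9.39 and 9.32 to 7.02, 7.29 and 7.21, its partner UHRF1 fell by 1.58 ± 0.14 and the H3K9 methyltransferase gene SUV39H2 changed by -1.67 ± 0.12, while EZH1, a polycomb methyltransferase, rose by 1.05 ± 0.13.

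In recombination, Fanconi and mismatch repair 19 of 25 fell, 10 at least 2-fold, and 1 rose (FANCE, 0.86 ± 0.11). XRCC2, which acts in recombination repair, measured 7.70, 7.91 and 7.79 on the normoxic arrays and 5.31, 5.27 and 4.97 on the hypoxic arrays. BLM, a helicase of recombination repair, measured 7.22, 7.80 and 7.50 on the normoxic arrays and 5.06, 5.19 and 5.14 on the hypoxic arrays. All hypoxic arrays of both genes lay close to the dim-filter level, and the changes were -2.62 ± 0.12 and -2.38 ± 0.13 (adjusted p = 2.37e-11 or lower). Base and nucleotide excision repair had 17 falls and 3 rises among 27, with the glycosylase gene NEIL3 at -2.72 ± 0.16, the uracil glycosylase gene UNG at -1.92 ± 0.12 and PARP1 at -1.69 ± 0.14. The damage sensor gene DDB2 rose by 0.98 ± 0.10. Cohesin and condensin fell in 17 of 25 cases, 10 at least 2-fold, with NCAPH of condensin at -2.34 ± 0.12, NCAPD3 at -2.30 ± 0.13 and the cohesin ring gene SMC1A at -1.98 ± 0.17. Kinesins fell in 19 of 37 cases, among them the mitotic motor genes KIF20A and KIF11 (-3.53 ± 0.11 and -3.24 ± 0.13).

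The promoters of BLM and of the condensin gene NCAPG are shown because their lists held a larger share of the motif marked than all promoters did. NCAPG went from 7.94, 8.06 and 8.19 to 6.11, 6.07 and 6.14. Capitals mark GCGGGAA, an E2F-type site, in BLM and TTTGAA, the core of the cell cycle genes homology region, in NCAPG. The NCAPG promoter also matches GCGGGAA, which was left in lower case there. The 250 bases before the start are given as above.
BLM (chr15:90717096-90717345, plus strand): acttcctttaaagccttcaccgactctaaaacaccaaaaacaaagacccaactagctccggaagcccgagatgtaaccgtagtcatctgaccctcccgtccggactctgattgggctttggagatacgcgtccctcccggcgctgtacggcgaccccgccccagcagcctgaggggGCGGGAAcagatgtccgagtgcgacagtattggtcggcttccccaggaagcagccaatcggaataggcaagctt
NCAPG (chr4:17810729-17810978, plus strand): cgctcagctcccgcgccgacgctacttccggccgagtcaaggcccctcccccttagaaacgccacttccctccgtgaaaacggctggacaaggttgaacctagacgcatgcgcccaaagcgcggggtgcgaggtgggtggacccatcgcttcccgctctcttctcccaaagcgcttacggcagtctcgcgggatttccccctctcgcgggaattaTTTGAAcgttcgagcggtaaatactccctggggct
Over 300-base windows, GCGGGAA on either strand was found in 12 of 23 promoters of the recombination list (52.2%) and in 9.5% of all 12500 promoters. TTTGAA was found in 8 of 21 cohesin and condensin promoters (38.1%) and in 10.4% of all. The cohesin and condensin promoters also held GCGGGAA in 19.0%, and the recombination promoters held TTTGAA in 8.7%.

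Signalling genes of the immediate-early class were higher. Of 24 immediate-early transcription factor genes and their companions, 20 rose, 8 at least 2-fold, and 2 fell, with a median of 0.67. JUN, a part of the AP-1 factor, measured 6.88, 7.20 and 6.52 on the normoxic arrays and 9.95, 9.90 and 9.91 on the hypoxic arrays. IER3, a survival gene, measured 10.48, 10.34 and 10.13 on the normoxic arrays and 13.04, 13.13 and 13.10 on the hypoxic arrays. The hypoxic arrays of JUN were close together whereas its normoxic arrays were more spread, and both genes rose by about 3 units (3.06 ± 0.14 and 2.77 ± 0.10). ZFP36, which destabilises AU-rich messages, rose by 1.85 ± 0.14, and the orphan receptor gene NR4A2 fell by 0.60 ± 0.17. Feedback regulators of MAP kinases rose in 11 of 20 cases and fell in 1. DUSP5, a phosphatase of nuclear ERK, measured 8.91, 8.62 and 8.76 on the normoxic arrays and 11.76, 11.94 and 11.77 on the hypoxic arrays, and the EGFR inhibitor gene ERRFI1 measured 9.95, 9.88 and 9.90 on the normoxic arrays and 12.63, 12.75 and 12.53 on the hypoxic arrays. Their changes were 3.06 ± 0.12 and 2.73 ± 0.12, and SPRED2 was the gene called lower (-0.66 ± 0.14).

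Of 20 circadian clock genes, 11 rose and 4 fell. RORA, which activates the clock gene BMAL1, measured 4.87, 4.69 and 4.88 on the normoxic arrays and 7.50, 7.87 and 7.45 on the hypoxic arrays. NR1D1, which represses BMAL1, measured 7.28, 7.41 and 7.01 on the normoxic arrays and 9.67, 9.50 and 9.86 on the hypoxic arrays. Both rose clear of their normoxic arrays, RORA from just above the dim-filter level, by 2.79 ± 0.13 and 2.44 ± 0.12. BMAL1 fell by 0.81 ± 0.13 and its partner CLOCK changed by -1.12 ± 0.18, whereas the output repressor gene NFIL3 rose by 2.58 ± 0.13. Targets of YAP and TEAD rose in 13 of 20 cases and fell in 4. F3 went from 6.51, 6.44 and 6.54 to 9.43, 10.02 and 9.67 and ANKRD1 from 6.99, 6.85 and 6.76 to 9.68, 9.92 and 9.48, but CCN2, among the best known of these targets, fell by 0.96 ± 0.10, and NT5E and TGFB2 (-1.34 ± 0.14) fell as well.

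The Notch list had 13 rises and 4 falls among 25, none of the rises reaching 2-fold, with JAG2 (0.93 ± 0.11) highest and NOTCH3 (-1.19 ± 0.12) lowest. In the Wnt pathway 16 of 38 fell, 11 at least 2-fold, and 10 rose. The secreted inhibitor gene DKK1 measured 12.15, 12.36 and 12.20 on the normoxic arrays and 8.67, 9.02 and 8.53 on the hypoxic arrays, and the receptor-degrading ligase gene RNF43 measured 8.85, 8.95 and 9.03 on the normoxic arrays and 5.51, 5.65 and 5.38 on the hypoxic arrays. Each fell by more than 3 units on every array (-3.50 ± 0.11 and -3.43 ± 0.10), LGR4 fell by 1.94 ± 0.15, and WNT7B rose by 1.40 ± 0.13. Apoptosis regulators rose in 18 of 32 cases and fell in 10. The death receptor gene TNFRSF10B measured 8.83, 8.87 and 8.97 on the normoxic arrays and 10.68, 10.83 and 10.83 on the hypoxic arrays, and the survival gene MCL1 measured 9.36, 9.84 and 9.43 on the normoxic arrays and 11.27, 11.45 and 11.19 on the hypoxic arrays. Genes with opposed roles thus rose by similar amounts (1.89 ± 0.11 and 1.76 ± 0.13), the decoy receptor gene TNFRSF10D rose by 1.95 ± 0.11, and the caspase genes CASP6 and CASP8 fell (-2.04 ± 0.14 and -1.51 ± 0.12).

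At the cell surface, the guidance list had 14 rises and 10 falls among 39, and its largest rises were ephrin-A ligands. EFNA1 measured 7.42, 7.48 and 7.43 on the normoxic arrays and 10.15, 10.01 and 10.11 on the hypoxic arrays, and EFNA3 measured 6.32, 6.17 and 6.40 on the normoxic arrays and 8.77, 8.83 and 8.85 on the hypoxic arrays. Their arrays lay close together in each group, and the changes were 2.64 ± 0.10 and 2.52 ± 0.09; EFNA5 rose by 2.11 ± 0.11 and the repulsive cue SEMA3A fell by 1.72 ± 0.13. Integrins and laminins had 7 rises and 7 falls among 27 (25.9% each), near the shares of all genes. The collagen receptor subunit gene ITGA2 went from 7.70, 8.28 and 8.07 to 10.72, 11.16 and 10.77 and the fibronectin receptor subunit gene ITGA5 from 7.79, 8.17 and 8.04 to 9.96, 10.32 and 10.10, whereas ITGAV and ITGB6, which pair in epithelium, fell (-1.21 ± 0.15 and -1.04 ± 0.11). Cell junction genes had 8 rises and 10 falls among 26, PKP2 of the desmosome rising by 1.72 ± 0.12 and CLDN2 and MARVELD2 of the tight junction falling (-1.71 ± 0.13 and -1.64 ± 0.13).

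Matrix proteases and their inhibitors were called in 12 of 27 cases, 4 higher (14.8%) and 8 lower (29.6%), beside 28.2% and 29.4% of all genes. MMP10 rose by 1.97 ± 0.13 and the urokinase receptor gene PLAUR by 1.82 ± 0.14, and MMP7 fell by 1.78 ± 0.22. Of 37 actin and tubulin genes, 17 fell and 8 rose, with TUBG1 of the centrosome at -1.88 ± 0.16 and the focal adhesion gene ZYX at 1.38 ± 0.10. In complement and coagulation 17 of 31 fell, 10 at least 2-fold, and 5 rose. FGA fell from 10.40, 10.63 and 10.47 to 7.50, 7.56 and 7.24 and the complement gene C5 from 9.52, 9.93 and 9.80 to 6.95, 6.87 and 6.36, opposite to F3, the starter of coagulation. MHC class I presentation fell in 5 of 9 cases, with CALR at -0.97 ± 0.10, while the peptide transporter gene TAP1 rose from 7.70, 7.85 and 7.75 to 9.06, 8.87 and 9.12. Among 21 pH and sodium transport genes 10 fell and 6 rose. The chloride cotransporter gene SLC12A2 measured 11.32, 11.66 and 11.46 on the normoxic arrays and 8.44, 8.66 and 8.18 on the hypoxic arrays, a change of -3.06 ± 0.15, and the bicarbonate carrier gene SLC4A4 fell by 2.40 ± 0.12.

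Gene families were also defined by their symbols. Of 363 ZNF zinc finger genes, 80 rose and 96 fell, with a median of 0.01, and ZNF581 (2.60 ± 0.11) and ZNF302 (-2.43 ± 0.18) were the extremes. Of 291 solute carriers, 109 fell, 47 at least 2-fold, and 45 rose; their median of 0.02 turned to -0.02 after median centring, -0.04 after quantile normalization and -0.29 under the stricter dim filter. RAB GTPases had 15 rises and 19 falls among 54 (27.8% and 35.2%), and TRIM proteins 10 and 10 among 52 (19.2% each). Ubiquitin-specific proteases had 11 and 20 among 46 (23.9% and 43.5%). Collagen chains rose in 15 of 41 cases and fell in 3. No collagen rise reached 2-fold, COL7A1 being highest at 0.93 ± 0.11, and COL12A1 fell by 2.02 ± 0.20. Keratins rose in 9 of 43 cases and fell in 3 (20.9% and 7.0%), both below the shares of all genes. Olfactory receptors, most of them close to the dim-filter level, rose in 29 of 135 cases (21.5%, below the share of all genes), none by 2-fold. Falls were called in 3, OR51E1, OR51E2 (-1.33 ± 0.12) and OR1F1 (-0.56 ± 0.18), which all lay above the dim-filter level on every normoxic array. The OR1F1 call ended without hypoxic replicate 2 (adjusted p = 0.0544).

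The calls were also counted by kind of gene. Among 14872 protein-coding genes 4063 rose and 4627 fell, with a median change of 0.07. Among 503 long noncoding RNAs 158 rose and 31 fell. Of 138 small nucleolar RNAs, which guide chemical changes of ribosomal RNA, 110 rose and none fell, with a median of 1.03. Of 88 microRNA precursors, 44 rose and none fell, with a median of 0.29. The difference between the kinds of gene was not tested.

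**Figure D4:**
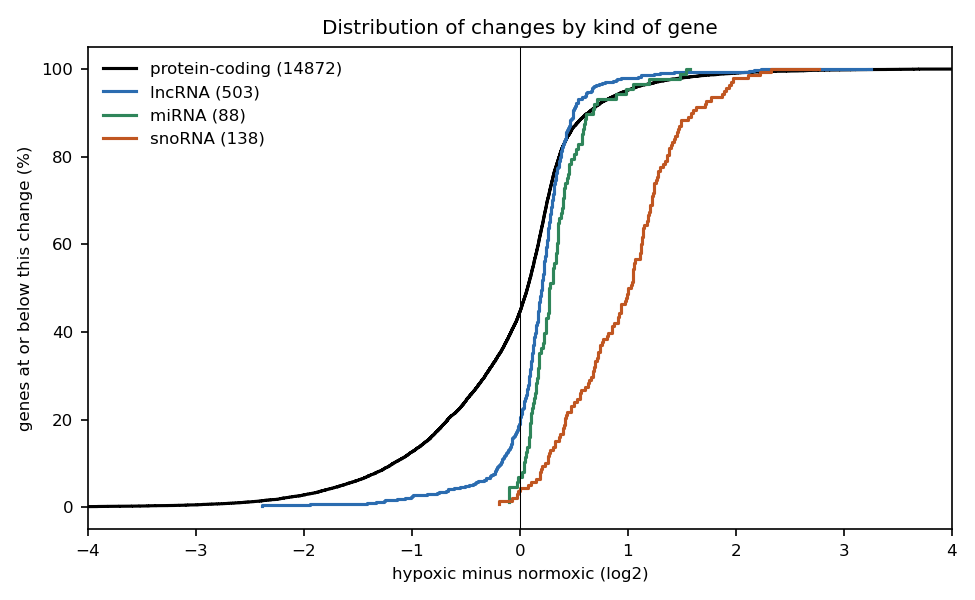
Cumulative share of genes (%, vertical axis) at or below each change (log2, horizontal axis) for protein-coding genes, long noncoding RNAs, microRNAs and small nucleolar RNAs. The small nucleolar RNA curve lies to the right of the others, with its median at 1.03.

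Box C/D small nucleolar RNAs, which guide 2'-O-methylation, rose in 77 of 82 cases, 52 of them at least 2-fold. Box H/ACA RNAs, which guide pseudouridylation, rose in 32 of 54, 19 at least 2-fold. SNORD61 measured 6.47, 6.61 and 5.70 on the normoxic arrays and 9.52, 8.05 and 9.52 on the hypoxic arrays, and SNORD54 measured 7.75, 7.98 and 7.56 on the normoxic arrays and 10.38, 9.50 and 10.08 on the hypoxic arrays. In both, hypoxic replicate 2 was the lowest of its group but still above every normoxic array, and the standard errors were several times the usual size (2.77 ± 0.64, adjusted p = 0.00118, and 2.22 ± 0.42, adjusted p = 0.000197). Many of these RNAs are cut from introns of host genes. SNORD54 lies in RPS20, which rose by 0.33 ± 0.09, and SNORD42A, in RPL23A, rose by 1.91 ± 0.33 beside 0.24 ± 0.08 for its host. The small RNAs of the SNORD113 and SNORD114 kind are near-identical repeats, so that the value of SNORD114-3 (2.33 ± 0.40) may be shared among copies.

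MicroRNA precursors with the larger rises are shown with their mature sequences, because the array measures the precursor or its surrounding transcript and not the mature strand. MIR23A, MIR27A and MIR24-2 are made from 1 transcript on chromosome 19. Sequences are from RefSeq on GRCh38.p14, 5′ to 3′, and capitals mark the seed, bases 2 to 8.
hsa-miR-23a-3p (chr19:13836595-13836615, minus strand): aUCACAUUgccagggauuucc
hsa-miR-27a-3p (chr19:13836447-13836467, minus strand): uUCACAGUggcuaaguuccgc
hsa-miR-24-3p (chr19:13836289-13836310, minus strand): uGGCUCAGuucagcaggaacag
hsa-miR-21-5p (chr17:59841273-59841294, plus strand): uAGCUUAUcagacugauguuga
hsa-miR-15a-5p (chr13:50049167-50049188, minus strand): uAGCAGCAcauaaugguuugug
hsa-miR-365a-3p (chr16:14309340-14309361, plus strand): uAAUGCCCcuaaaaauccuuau
No 2 of these 6 share a seed.

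The precursors of the chromosome 19 cluster rose together. MIR24-2 measured 4.60, 4.65 and 4.22 on the normoxic arrays and 5.84, 6.64 and 5.72 on the hypoxic arrays. Its normoxic mean lay below the dim-filter level, so the rise is given as at least 1.46 units, and MIR23A and MIR27A rose by 0.98 ± 0.16 and 1.05 ± 0.17. MIR21, which lies at the end of the VMP1 gene, measured 8.37, 8.34 and 8.35 on the normoxic arrays and 9.38, 9.85 and 9.41 on the hypoxic arrays, a rise of 1.19 ± 0.12 without overlap. VMP1 itself fell by 0.64 ± 0.16. MIR15A and MIR365A rose by 1.49 ± 0.15 and 1.54 ± 0.16 (adjusted p = 1.07e-07 or lower), and the host transcripts MIR1915HG and MIR31HG fell (-1.03 ± 0.12 and -0.68 ± 0.12).

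Promoter motifs were counted in windows of 300 bases, 250 before and 50 after the start, which were found for 12500 of the 16005 genes. The HIF core ACGTG, on either strand, was in 54.9% of 71 classical target promoters and in 25.1% of all. In the 542 other promoters of genes at least 2-fold higher it was in 27.9%, and in the 1594 promoters of genes at least 2-fold lower in 25.4%. The cyclic AMP response sequence TGACGTCA, which contains ACGT but not ACGTG, was in 5.5% of the same 542 and 2.9% of all. It was in 1 of 115 promoters of genes at least 4-fold higher (0.9%) and in 4.3% of 352 at least 4-fold lower. An NF-kB-type sequence (3 G, 2 free bases, 3 T and 2 C) was in 4.6% of the 542 and 2.1% of all. Its shares in genes at least 4-fold higher and lower were 5.2% and 2.0%. Among genes at least 2-fold lower, TTTGAA was in 14.1% (10.4% of all), GCGGGAA in 191 of 1594 (9.5% of all) and CCAAT in 41.9% (35.8%). CCAAT reached 48.3% in genes at least 4-fold lower. In the other higher genes the antioxidant-type sequence TGACNNNGC and the amino acid response sequence TGATGNAA differed little, at 16.6% and 2.2% beside 15.1% and 2.1% of all. Among the lists, TGACNNNGC was in 33.3% of 21 cohesin and condensin and 31.2% of 32 proteasome promoters. It was in 8.7% of 23 recombination, 6.2% of 16 aldehyde and carbonyl and 10.0% of 20 fatty acid oxidation promoters. All were searched on both strands. The groups also differed in base composition, with a median of 68.0% G and C in genes at least 2-fold higher, 63.3% in genes at least 2-fold lower and 64.3% in all, and the part of composition in these shares was not tested.

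**Figure D5:**
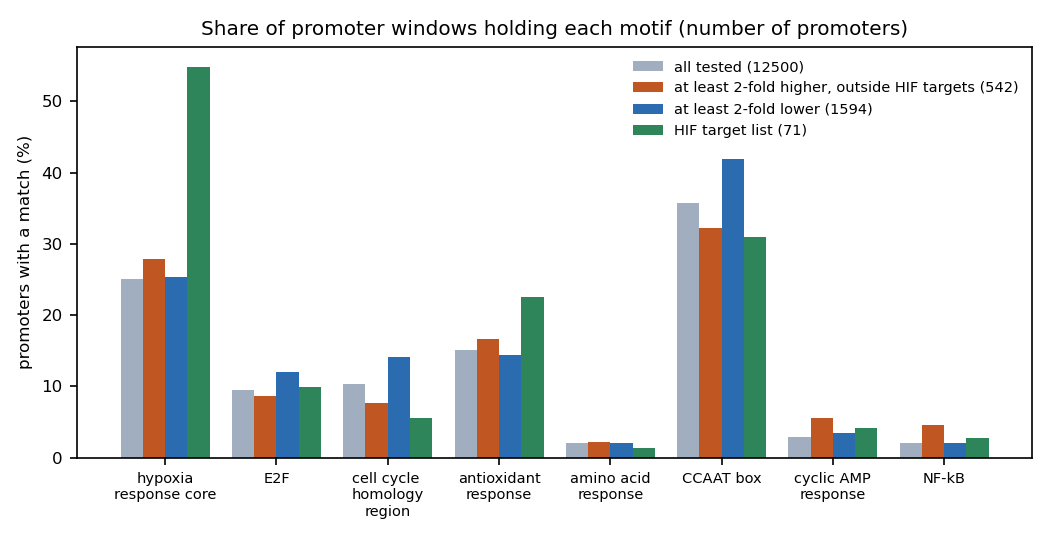
Share of promoter windows (%, vertical axis, from 0) holding each of 8 motifs in 4 groups of genes, with the number of promoters in the legend. The HIF core stands out in the classical targets (54.9%) and is near the share of all promoters (25.1%) in the other groups.

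Steady genes were chosen by their interval. The 95% interval of the change lay within 0.32 log2 units of 0 in 1610 genes. None of them was called, which this choice nearly ensures and which is no separate result. GAPDH, counted among the classical HIF targets, measured 13.94, 14.004 and 13.98 on the normoxic arrays and 14.09, 14.12 and 14.01 on the hypoxic arrays, with an interval of the change from -0.10 to 0.29. PLCG2, a phospholipase, measured 13.54, 13.51 and 13.49 on the normoxic arrays and 13.53, 13.64 and 13.68 on the hypoxic arrays, with an interval from -0.07 to 0.28. The ribosomal protein genes RPL18, RPL5 and RPS14 changed by 0.08 ± 0.09, 0.09 ± 0.09 and 0.08 ± 0.09, and DAD1, COX6A1, TRMT112, MYL6 and PKM by between -0.11 and 0.05.

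Where a gene had several tested probe sets they mostly gave the same call. Of 579 such genes, 221 were called one way by all their probe sets, 185 by none, and 160 by some in 1 direction. In 13 genes probe sets were called in opposite directions, among them PTMA, RAB7A, WNK1, MAGT1 and the splicing factor gene TRA2A. No direction is named for these here. They were not taken out of the counts above, where each gene stands by its probe set of highest mean.

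The 9 hypoxic arrays with a compound are further hypoxic cultures, and their levels are given here as a description, without a test. SLC40A1 ran from 4.65 to 5.05 on them, with a median of 4.91, and all were below the normoxic arrays at 9.71 to 9.83. SLC7A11 ran from 5.80 to 7.56 with a median of 6.95, ST8SIA4 from 3.85 to 4.09 with a median of 3.997, and CDCP1 from 9.52 to 10.95 with a median of 9.61. The levels of F3 were more spread, from 7.31 to 10.29 with a median of 8.44, yet above its normoxic arrays at 6.44 to 6.54. PPP1R15A ran from 11.18 to 12.45 and the 3 hypoxic vehicle arrays from 10.25 to 11.02. H3C12 ran from 5.53 to 8.65, and its normoxic arrays lay at 9.87 to 10.11.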

How the data were processed

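Total RNA of A549 cultures was labelled with a whole-transcript kit and hybridised to Affymetrix arrays, 1 array per culture. The deposited values are intensities per probe set on the linear scale, made by the authors with RMA, per the submitters' processing notes; RMA corrects background, normalises between arrays and summarises probes. The sources used here name neither the RMA software nor the genome build. The log2 was taken here first. Gene symbols came from the platform annotation, updated through the gene ID for 19279 of 19310 single-symbol probe sets. Per gene the probe set of highest mean over 15 arrays was kept (685 genes had more than 1), and it had to lie above the 25th percentile of its own array (taken over all 28869 probe sets) on 3 or more arrays; 2372 of 18377 genes were removed.

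The test was limma's (3.58.1, R 4.3.3) on group means of all 15 arrays and the contrast of hypoxic minus normoxic vehicle (10 residual and 7.96 prior degrees of freedom), adjusted by Benjamini-Hochberg over 16005 genes and called at 0.05. The procedure was tested on simulated data. Lists (44, from textbook knowledge) and symbol families (14) were described by counts and medians.

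Named genes were, outside the HIF list, the 20 largest rises and falls among called, non-overlapping, non-dim genes; up to 3 each way per list; the 10 brightest genes with an interval within 0.32 log2 units of 0; the 8 largest bounds each way of genes crossing the dim filter; and VEGFA, SLC2A1, EGLN3 and NDRG1. Not all are printed, and KRT8, CLDN4, AKR1C1, the metallothioneins beside MT1X, MIR23A, MIR27A, VMP1, RPS20, RPL23A, SNORD42A, NCAPG and the genes named for opposed probe sets were chosen after their values were seen. The members, lists and tests were chosen with earlier results of these data known.

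Replicate numbers were checked as a pairing: deviations from the group means correlated at 0.06, 0.15 and 0.02 between same-numbered arrays. The labels state nothing shared beyond the number. Low correlations cannot show that nothing else was shared, and no pairing was set in the main fit. Alternatives covered normalization, the dim filter, the choice of probe set, the arrays in the fit, the variance model, array weights, the replicate block and leaving out each replicate. Promoter, miRNA and gene tables are RefSeq's, on GRCh38.p14.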

Additional observations from a re-analysis of the deposited data

Results flagged for a closer look

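Signal also changed in probe sets outside the gene comparison. Among 4174 probe sets without a gene name that passed the dim filter, 1598 were called higher in hypoxia and 323 lower by limma. The p-values were adjusted over all probe sets that passed the filter, with or without a gene symbol. Among 1517 probe sets with several gene symbols, 506 were called higher and 297 lower. Both are data the comparison by gene did not use, and the normoxic arrays are their control.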

How the results depend on the processing

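All 16 alternatives kept each of the 5 counts (called, higher, lower, and at least 2-fold each way) within 1.5 times its main value. The number called ran from 7715 without normoxic replicate 2 to 10222 with array weights, and over the fits without 1 replicate from 7715 to 8944. The replicate block gave 9078 called genes in the fit of 15 arrays and 9416 in that of the 6 vehicle arrays. Rises made up 48.96% of the called genes in the main setting, 45.4% after median centring and 49.3% after quantile normalization, with a median change of all genes of 0.09, 0.05 and 0.07. Of the changes of named genes under the alternatives, 5515 kept their direction and call, 65 kept the direction and lost the call, and none reversed; a call was lost most often by ALDH1A3, ALDH1A2, KRT7 and ATP6V1B1. Of the list medians 897 moved by less than their spread and 31 by more, and medians near 0, such as that of the solute carriers, changed sign. Dim genes have only bounds. The labels give no batch, scan or slide that could be set as a block here.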
